A study of Rattus norvegicus with 12 samples.

Results

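The genes described here encode Wnt ligands, their receptors, their secreted inhibitors and the nuclear effectors of the pathway, measured in rat bone by Affymetrix arrays. A gene was taken when its probe sets carried a single symbol beginning with Wnt, Fzd, Sfrp or Dkk and a number, or with Rspo or Kremen, or when the symbol was Wif1, Frzb, Sost, Lrp5, Lrp6, Lef1, Tcf7, Tcf7l1, Tcf7l2, Axin1, Axin2 or Ctnnb1. The rule reads gene names alone. The rule gave 41 genes measured by 67 probe sets, of 14217 genes and 31042 probe sets tested. They comprised 13 Wnt ligands, 7 Frizzled receptors, 3 genes for co-receptors and Kremen, 2 R-spondins, 9 secreted inhibitors and 7 genes of transcription and of the destruction complex. Dkk1, Dkk4, Fzd7, Fzd9, Fzd10, Kremen2, Rspo2, Rspo4, Wnt3, Wnt3a, Wnt7b, Wnt8a, Wnt9b and Wnt10b were not analysed here.

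All rats were Sprague-Dawley females killed on postnatal day (PND) 81, 3 weeks after surgery on PND 60. STBB OVX rats were ovariectomized and had eaten a diet with 10% blueberry (BB) from PND 20 to PND 34, LTBB OVX rats were ovariectomized and ate that diet from PND 20 to PND 81, OVX rats were ovariectomized on the casein control diet, and sham rats kept their ovaries on the casein control diet. Each group had 3 arrays of pooled RNA, every pool combining 2 to 3 animals, and a group was drawn from 8 rats or more. The labels name the femur as the tissue and the methods the right tibia.

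The deposited log2 values are centred, so that every probe set has its median across the 12 arrays at 0. They give differences between arrays, not how abundant a transcript is, so neither the level of a gene nor the presence of a cell type can be read from them. Since 9 of the 12 arrays came from ovariectomized rats, values of these arrays lie near 0 and a difference from sham appears as a sham value far from 0. Across all probe sets the standard deviation of an array was 0.136 to 0.194 in the ovariectomized groups, against 0.781 to 0.824 in sham. Many marker lists, though not all, moved with this split. Between OVX and sham all 12 osteoblast markers rose, 13 of 16 cartilage markers rose and 1 fell, 6 of 8 osteocyte markers rose and 1 fell, 7 of 8 osteoclast, 6 of 8 stromal and 7 of 8 endothelial markers rose with 1 endothelial marker lower, and all 19 skeletal muscle markers, 10 of 11 erythroid, all 6 neutrophil and 2 of 4 B cell markers fell, while 2 of 8 adipocyte markers rose and 3 fell. Of 8 housekeeping genes 3 rose and 3 fell. Over all genes 58.9% were called between OVX and sham, 30.3% higher and 28.6% lower in OVX (limma, adjusted p under 0.05). The counts of the B cell and adipocyte lists are near that share. The mean value of the cartilage list was -0.081 to 0.268 in OVX pools, against -3.683 to -3.625 in sham pools, that of the osteoblast list -0.010 to 0.035 in OVX pools, against -1.962 to -1.773 in sham pools, and that of the muscle list -2.74 to -1.232 in OVX pools, against 3.661 to 4.469 in sham pools. In bulk bone, fewer cells of a type and less RNA per cell cannot be told apart.

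Wnt proteins are secreted lipid-modified signals that bind Frizzled receptors together with the co-receptors LRP5 or LRP6. Binding stops a complex built on axin from destroying β-catenin, which then enters the nucleus and works with the transcription factors TCF and LEF; other Wnt signals run through Frizzled without β-catenin. In bone the β-catenin branch is known to favor osteoblast formation, and inhibitors act outside the cell: SFRP proteins and WIF1 bind Wnt proteins, whereas DKK proteins and sclerostin, the product of Sost, bind LRP5 and LRP6.

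The 250 bases before the start of transcription are printed for 5 genes. They were read from RefSeq promoters of the rat assembly GRCr8, 5′ to 3′ on the strand of the gene. The promoters of Wif1 and Frzb belong to the inhibitors with the largest rises between OVX and sham, and they differ in composition, with 27 and 3 CpG dinucleotides. The promoters of Sfrp2 and Wnt16 belong to the inhibitor and the ligand that fell most, and the promoter of Axin2 is the only one among the 29 that were found that holds the TCF/LEF core CTTTGAT. Capitals mark CpG dinucleotides in the first 4 sequences and the TCF/LEF core in the last.
Wif1, chr7:58433329-58433578, plus strand: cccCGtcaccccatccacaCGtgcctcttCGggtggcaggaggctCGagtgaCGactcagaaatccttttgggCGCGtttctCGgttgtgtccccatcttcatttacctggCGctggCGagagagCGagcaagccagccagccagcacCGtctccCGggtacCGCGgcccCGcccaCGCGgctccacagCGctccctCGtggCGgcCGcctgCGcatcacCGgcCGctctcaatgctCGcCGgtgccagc
Frzb, chr3:85772097-85772346, minus strand: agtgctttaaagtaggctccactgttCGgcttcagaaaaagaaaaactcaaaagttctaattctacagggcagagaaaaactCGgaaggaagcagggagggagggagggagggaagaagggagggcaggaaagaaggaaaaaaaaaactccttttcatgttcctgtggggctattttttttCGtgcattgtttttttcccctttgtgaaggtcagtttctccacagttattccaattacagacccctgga
Sfrp2, chr2:171387286-171387535, plus strand: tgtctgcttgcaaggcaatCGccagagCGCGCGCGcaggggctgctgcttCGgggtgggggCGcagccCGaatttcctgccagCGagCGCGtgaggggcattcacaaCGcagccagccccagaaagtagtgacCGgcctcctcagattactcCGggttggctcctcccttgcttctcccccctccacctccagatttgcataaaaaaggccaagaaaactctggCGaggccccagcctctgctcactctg
Wnt16, chr4:51786478-51786727, plus strand: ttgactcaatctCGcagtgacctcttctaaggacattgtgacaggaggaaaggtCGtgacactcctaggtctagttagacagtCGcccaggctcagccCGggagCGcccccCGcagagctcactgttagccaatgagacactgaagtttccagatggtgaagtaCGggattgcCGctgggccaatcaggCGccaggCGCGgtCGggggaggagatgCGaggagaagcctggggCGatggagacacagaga
Axin2, chr10:94398535-94398784, plus strand: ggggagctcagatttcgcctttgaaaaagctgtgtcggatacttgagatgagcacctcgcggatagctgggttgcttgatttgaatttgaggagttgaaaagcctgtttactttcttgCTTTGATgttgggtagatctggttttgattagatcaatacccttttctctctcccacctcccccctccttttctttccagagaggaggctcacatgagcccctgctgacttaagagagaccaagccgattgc

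A promoter of this length was found in the table for 29 of the 41 genes. Their median GC content was 63.6% and their median CpG count 18, beside 52.0% and 6 for all 27455 rat promoters. The CpG count was lowest at 3, in Frzb and Sost, and highest at 47, in Wnt4. The GC box GGGCGG, searched on both strands, was present in 15 of 29 (51.7%), beside 32.4% of all promoters, and the E-box CACGTG in 3 (10.3%), beside 5.79%. The TCF/LEF core CTTTGAT, searched on both strands, was present in 1 of 29 (3.45%), beside 3.18% of all promoters, and began 132 bases before the start site of Axin2, a feedback gene of the β-catenin branch. The RUNX core TGTGGTT and the TATA box TATAAA, on both strands, were found in none of the 29, beside 4.54% and 13.1% of all promoters. The median CpG count was 18 for the 13 genes with a promoter that were higher in OVX than in sham, 15 for the 3 that were lower and 22 for the 13 that were not called. A match is a run of letters in this window and was not examined further.

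The first comparison asked which of these genes differed in bone 3 weeks after loss of the ovaries. Between OVX and sham, 20 of the 41 genes rose, 3 fell and 18 did not pass the test (limma, Benjamini-Hochberg adjusted p under 0.05 over 14217 genes, n = 3 pools per group). Over all genes 58.9% were called, 30.3% higher and 28.6% lower. The share called among the Wnt genes, 23 of 41, is near that of the whole array, and 20 of the 23 were higher. The median log2 difference was 0.16 for the Wnt genes and 0.0047 for all genes. In 20 of the Wnt genes each of the 3 OVX pools exceeded all 3 sham pools, and in 3 each was below them, beside 31.5% and 29.7% of all genes. A call with at least a 2-fold difference was made for 11 higher genes and 1 lower gene, beside 16.6% of all genes in either direction.

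**Figure D1:**
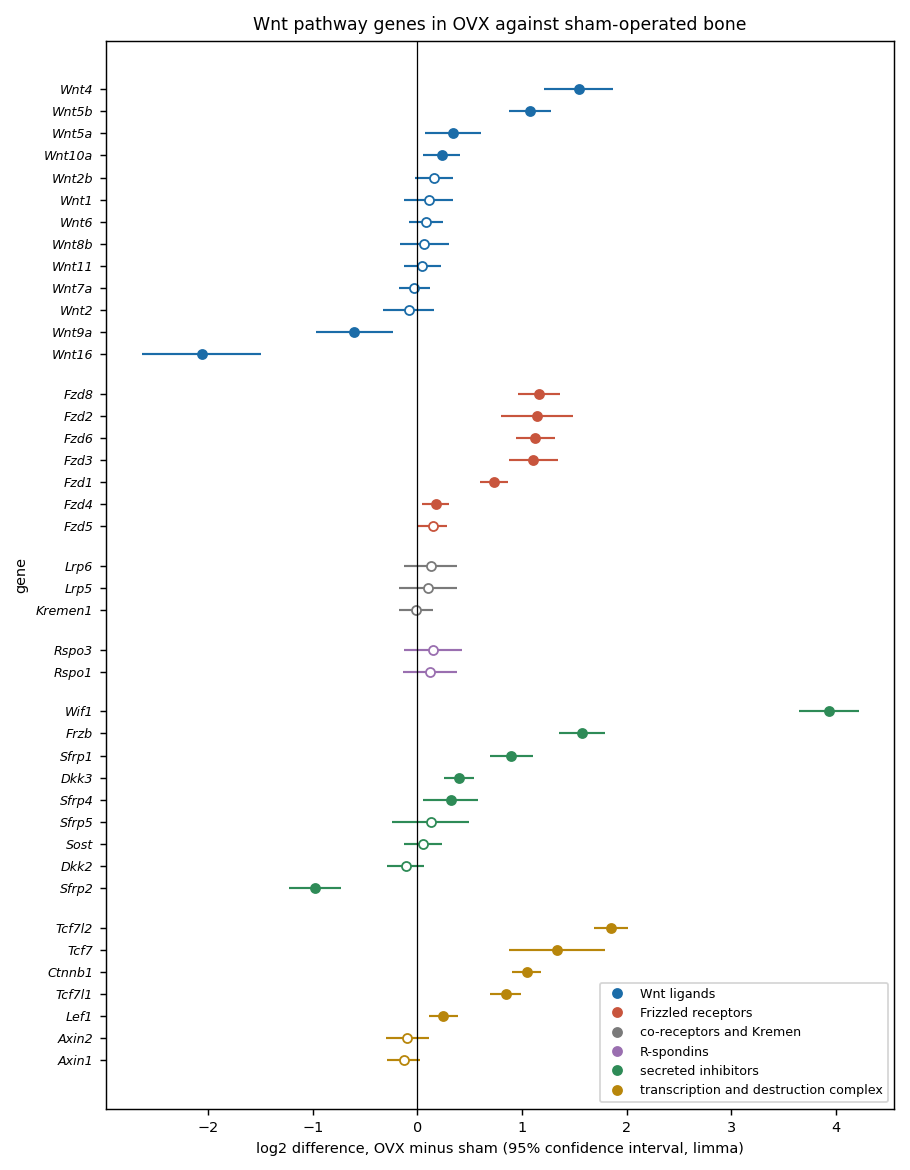
Log2 difference between OVX and sham (OVX minus sham, horizontal axis) with its 95% confidence interval for 41 Wnt pathway genes grouped by role (n = 3 pools per group); filled points passed the limma test and open points did not. Wif1 lies farthest to the right at 3.94 and Wnt16 farthest to the left at -2.07, and all 7 Frizzled receptors lie above 0.

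When the arrays were quantile normalized once more, which makes their standard deviations equal, 11 of the 23 calls remained, in Ctnnb1, Frzb, Fzd1, Fzd3, Fzd6, Sfrp1, Sfrp2, Tcf7l1, Tcf7l2, Wif1 and Wnt4. The differences shrank as well: 22 of the 23 were smaller in size, 20 of them by more than 1.5 times, and the median absolute log2 difference of the 23 was 0.41, against 1.04 with the values as deposited. Wif1 was then 1.95, Frzb 0.58, Ctnnb1 0.33, Fzd1 0.26 and Sfrp2 -0.47. The value of Wnt5a then changed sign, to -0.024 with an adjusted p of 0.959. The 12 calls that were lost under this setting are those of Wnt5b, Wnt5a, Wnt10a, Wnt16, Wnt9a, Fzd8, Fzd2, Fzd4, Dkk3, Sfrp4, Tcf7 and Lef1. The share of all genes called under this setting was not counted. Whether Wnt genes lost calls more often than other genes therefore cannot be read from these counts. Equal standard deviations narrow the sham arrays, at 0.781 to 0.824 as deposited, and widen the ovariectomized arrays, at 0.136 to 0.194. Smaller differences from sham and fewer calls thus follow in part from the setting, so they do not rank single genes.

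Among the 13 Wnt ligands, 4 rose in OVX, 2 fell and 7 did not pass the test, with a median log2 difference of 0.082. Over all genes 30.3% were called higher and 28.6% lower. Wnt4, a ligand with known roles in the female reproductive tract and in osteoblast differentiation, rose most among the ligands. Its centred log2 values were 0.19, 0.039 and -0.14 in STBB OVX pools, 0.019, -0.047 and 0.13 in LTBB OVX pools and 0.19, -0.019 and 0.26 in OVX pools, against -1.75, -1.43 and -1.02 in sham pools. The 9 arrays of ovariectomized rats lay above every sham array, and the difference between OVX and sham was 1.54 ± 0.15 (log2, SE), or 2.91-fold (adjusted p = 1.41e-06).

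Wnt5b, known from mouse cartilage as a regulator of chondrocyte maturation, was the other ligand that rose at least 2-fold. Its values were 0.065, 0.12 and 0.026 in STBB OVX pools, -0.23, 0.014 and 0.041 in LTBB OVX pools and 0.10, -0.014 and -0.074 in OVX pools, against -0.93, -1.06 and -1.23 in sham pools. No pool of the ovariectomized groups overlapped the sham pools, and OVX exceeded sham by 1.08 ± 0.093 (adjusted p = 3.73e-07). Wnt5a, which signals mostly without β-catenin and is known in mouse bone to promote osteoclast formation through the receptor Ror2, rose less. Its values were -0.0097, 0.28 and 0.22 in STBB OVX pools, 0.30, 0.38 and 0.13 in LTBB OVX pools and 0.0097, -0.16 and -0.16 in OVX pools, against -0.70, -0.17 and -0.46 in sham pools. The highest sham pool, pool 2, lay just below the lowest OVX pools, and the difference was 0.34 ± 0.12 (adjusted p = 0.033). The call for Wnt5a was lost without OVX pool 1 (0.28, adjusted p = 0.113) and without OVX pool 3 (0.37, adjusted p = 0.0514). Leaving out sham pool 1 (0.21, adjusted p = 0.149) or sham pool 3 (0.33, adjusted p = 0.0681) lost it too. It was also lost with arrays weighted by their estimated quality (0.23, adjusted p = 0.131) or centred on housekeeping genes (0.31, adjusted p = 0.069). The same held with unmoderated variances (adjusted p = 0.0722) and in a fit of OVX and sham alone (adjusted p = 0.0612).

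Wnt10a, a ligand of the β-catenin branch, had -0.28, -0.0021 and -0.071 in STBB OVX pools, -0.030, -0.090 and 0.027 in LTBB OVX pools and 0.26, 0.093 and 0.25 in OVX pools, against 0.015, -0.11 and 0.0021 in sham pools. The OVX pools alone stood high, with both BB groups near or below sham, and OVX exceeded sham by 0.23 ± 0.082 (adjusted p = 0.0274). This call was lost without OVX pool 1 (0.20, adjusted p = 0.0911), without OVX pool 3 (0.21, adjusted p = 0.0865) and without sham pool 2 (0.19, adjusted p = 0.0949). Centring the arrays on housekeeping genes lost it too (0.20, adjusted p = 0.0727). Wnt6, the gene next to Wnt10a on chromosome 9 of the reference with no annotated gene starting between them, differed by 0.082 ± 0.074 and did not pass the test.

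Wnt16, a ligand known in mice to protect cortical bone and to restrain osteoclasts, fell most. Its values were -0.13, 0.88 and 0.59 in STBB OVX pools, -0.39, -0.12 and -0.32 in LTBB OVX pools and -0.96, 0.12 and -0.35 in OVX pools, against 1.47, 1.83 and 1.70 in sham pools. All ovariectomized pools lay below the sham pools, with STBB OVX pool 2 highest and OVX pool 1 lowest among them, and the difference between OVX and sham was -2.07 ± 0.26, or 4.19-fold lower in OVX (adjusted p = 1.61e-05). Wnt9a, known in mice for its part in joint formation, was lower by a smaller amount. Its values were -0.49, 0.045 and -0.11 in STBB OVX pools, -0.15, 0.0055 and -0.10 in LTBB OVX pools and -0.40, -0.0055 and 0.25 in OVX pools, against 0.68, 0.30 and 0.68 in sham pools. OVX pool 3 came within reach of sham pool 2 without overlap, and the difference was -0.60 ± 0.17 (adjusted p = 0.00746); with arrays weighted by their estimated quality it was -0.38 and not called (adjusted p = 0.0933). The 7 ligands that did not pass the test, Wnt1, Wnt2, Wnt2b, Wnt6, Wnt7a, Wnt8b and Wnt11, had differences between -0.086 for Wnt2 and 0.16 for Wnt2b.

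**Figure D2:**
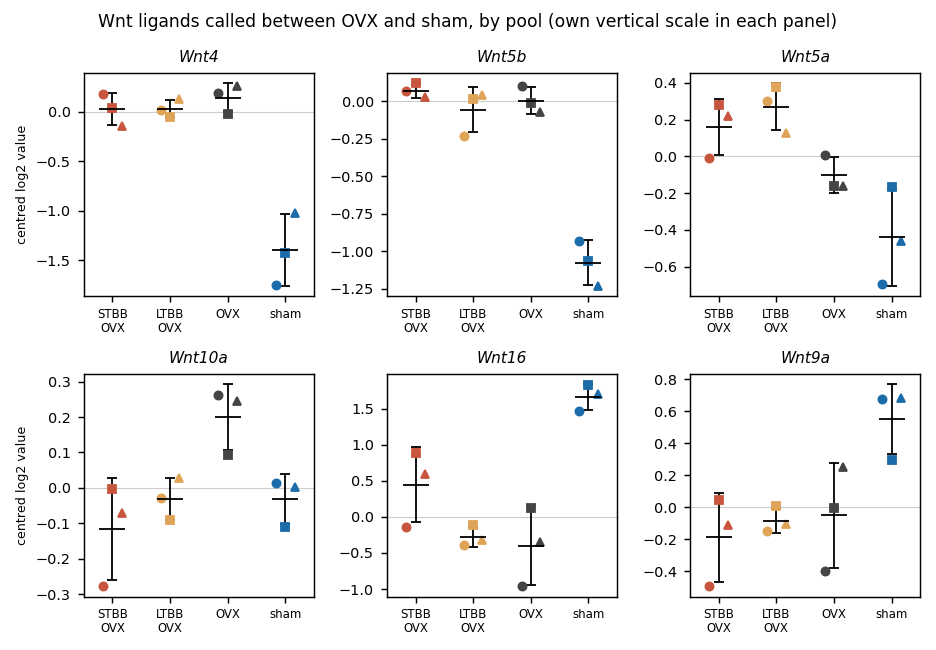
Centred log2 values of the 6 Wnt ligands called between OVX and sham in each pool of the 4 groups; the marker shape gives the pool number, the bar the group mean and the whiskers 1 SD (n = 3 pools). Wnt4 and Wnt5b are lower in sham than in all ovariectomized pools, Wnt16 and Wnt9a are higher in sham, and Wnt10a is highest in OVX pools.

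Of the 7 Frizzled receptors, which bind Wnt proteins at the cell surface, 6 rose in OVX and none fell, beside 30.3% of all genes called higher. Under quantile normalization the calls of Fzd1, Fzd3 and Fzd6 remained and those of Fzd2, Fzd4 and Fzd8 were lost. The median log2 difference was 1.11. In all 7 the lowest OVX pool exceeded the highest sham pool, beside 31.5% of all genes. Fzd8 had 0.023, 0.036 and 0.017 in STBB OVX pools, -0.017, 0.091 and 0.071 in LTBB OVX pools and -0.22, 0.17 and -0.12 in OVX pools, against -1.14, -1.34 and -1.18 in sham pools. Fzd2 had -0.12, 0.014 and 0.20 in STBB OVX pools, -0.081, 0.073 and 0.23 in LTBB OVX pools and 0.088, 0.075 and -0.014 in OVX pools, against -1.41, -1.21 and -0.66 in sham pools. In both genes sham stood below every ovariectomized pool, and the sham pools of Fzd2 were spread more widely, with pool 3 highest.

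The differences between OVX and sham were 1.16 ± 0.093 for Fzd8 (adjusted p = 1.92e-07) and 1.14 ± 0.16 for Fzd2 (adjusted p = 3.04e-05). Fzd6, a receptor known for planar polarity in mice, had 0.12, 0.30 and 0.0098 in OVX pools, against -1.06, -1.0 and -0.90 in sham pools, a difference of 1.13 ± 0.085 (adjusted p = 1.07e-07). Fzd3, which shares that role in mice, had -0.038, 0.23 and 0.087 in OVX pools, against -0.75, -1.09 and -1.20 in sham pools, a difference of 1.11 ± 0.11 (adjusted p = 1.39e-06). The 4 receptors thus rose by similar amounts, between 2.15-fold and 2.24-fold. Fzd1 rose by 0.73 (adjusted p = 2.76e-07) with pools apart.

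Fzd4, a receptor known in vessels for the ligand norrin, rose by 0.17 ± 0.058 (adjusted p = 0.021). Its call was lost without OVX pool 3 (0.15, adjusted p = 0.0801), without sham pool 2 (0.15, adjusted p = 0.0689) and with a single probe set (0.19, adjusted p = 0.0522). Centring on housekeeping genes (0.14, adjusted p = 0.0794) and a fit of OVX and sham alone (0.17, adjusted p = 0.0885) lost it too. Fzd5 had 0.017, -0.0051 and 0.077 in OVX pools, against -0.11, -0.050 and -0.18 in sham pools. Its pools did not overlap, yet the difference of 0.14 ± 0.065 missed the threshold (adjusted p = 0.0732), with an interval of 0.0038 to 0.29.

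The co-receptors did not pass the test. Lrp6 had 0.22, -0.013 and -0.19 in OVX pools, against -0.22, -0.15 and 0.019 in sham pools. Lrp5 had -0.12, 0.031 and 0.080 in OVX pools, against 0.037, -0.15 and -0.20 in sham pools. In both genes the pools of the 2 groups overlapped, with differences of 0.13 ± 0.12 for Lrp6 (interval -0.13 to 0.38) and 0.10 ± 0.13 for Lrp5 (interval -0.17 to 0.38). Kremen1, a membrane protein that removes LRP6 from the surface together with DKK proteins, had 0.045, -0.042 and -0.0080 in OVX pools, against 0.0080, 0.042 and -0.017 in sham pools. Its difference was -0.013 ± 0.075 (interval -0.18 to 0.15), and no other of the 41 genes lay closer to 0. The R-spondins strengthen Wnt signals through LGR receptors. Rspo3 had 0.25, -0.12 and 0.030 in OVX pools, against -0.23, 0.21 and -0.27 in sham pools, and sham pool 2 lay apart from the other 2 sham pools and above 2 of the OVX pools. The difference of 0.15 ± 0.13 was not called, but it was 0.30 without sham pool 2 (adjusted p = 0.034) and 0.40 with a single probe set (adjusted p = 0.023), both called. Rspo1 differed by 0.12 ± 0.12 and was not called.

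The secreted inhibitors held both the largest rise and a clear fall. Of 9 members 5 rose in OVX, 1 fell and 3 did not pass the test, with a median log2 difference of 0.32. The shares over all genes were 30.3% called higher and 28.6% lower. Wif1, which binds Wnt proteins outside the cell and is known in mice from cartilage and maturing osteoblasts, rose most of all 41 genes. Its values were 0.059, -0.028 and -0.21 in STBB OVX pools, -0.0079, 0.019 and 0.028 in LTBB OVX pools and 0.078, 0.027 and 0.0079 in OVX pools, against -3.51, -4.13 and -4.05 in sham pools. The 9 arrays of ovariectomized rats lay together and more than 3 log2 units above the 3 sham arrays, a difference of 3.94 ± 0.13 between OVX and sham, or 15.3-fold (adjusted p = 8.72e-11). Under quantile normalization the log2 difference was 1.95 (adjusted p = 3.71e-05).

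Frzb, a secreted Frizzled-related protein first known from cartilage, followed. Its values were 0.18, 0.13 and 0.11 in STBB OVX pools, 0.027, -0.055 and 0.080 in LTBB OVX pools and -0.033, -0.022 and 0.026 in OVX pools, against -1.59, -1.32 and -1.83 in sham pools. The ovariectomized pools did not overlap sham, and OVX exceeded sham by 1.57 ± 0.10, or 2.97-fold (adjusted p = 2.64e-08). Of 16 cartilage markers 13 rose alongside Wif1 and Frzb, among them Col2a1 by 5.14, Acan by 3.42 and Comp by 5.09 (log2, OVX minus sham). Sox6 fell, at -2.62, and Matn1 and Ucma were not called. Osteoblast (12 of 12), osteoclast (7 of 8) and endothelial (7 of 8) markers rose too. The part of these lists in the result was not tested.

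Sfrp1, whose loss is known to raise bone mass in mice, had 0.033, 0.069 and 0.23 in STBB OVX pools, 0.047, -0.24 and -0.16 in LTBB OVX pools and 0.017, 0.22 and 0.14 in OVX pools, against -0.65, -0.77 and -0.89 in sham pools. All ovariectomized pools lay above sham, with LTBB OVX pool 2 lowest among them, and OVX exceeded sham by 0.90 ± 0.094 (adjusted p = 2.68e-06). Sfrp2 went the other way. Its values were -0.19, 0.053 and -0.013 in STBB OVX pools, -0.15, -0.16 and -0.26 in LTBB OVX pools and -0.0040, -0.20 and 0.086 in OVX pools, against 1.13, 1.01 and 0.67 in sham pools. Sham pools stood above all others, with sham pool 3 lowest among the 3, and the difference between OVX and sham was -0.98 ± 0.12, or 1.97-fold lower in OVX (adjusted p = 7.82e-06). The related genes Sfrp1, Sfrp2 and Frzb thus did not move in one direction. Markers of skeletal muscle (19 of 19), erythroid cells (10 of 11) and neutrophils (6 of 6) fell in OVX, as did Sfrp2 and Wnt16. The part of these lists in the result was not tested.

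Dkk3, a relative of the DKK inhibitors whose action on LRP6 is less clear, had -0.022, 0.075 and 0.075 in STBB OVX pools, -0.022, 0.082 and -0.029 in LTBB OVX pools and -0.0024, -0.038 and 0.078 in OVX pools, against -0.44, -0.33 and -0.38 in sham pools. No OVX pool overlapped the sham pools, and the difference between OVX and sham was 0.40 ± 0.065 (adjusted p = 0.00014). Sfrp4, lacking in a human disease of thin cortical bone, had 0.069, 0.39 and 0.45 in STBB OVX pools, -0.084, 0.12 and 0.028 in LTBB OVX pools and 0.18, 0.23 and -0.15 in OVX pools, against -0.18, -0.37 and -0.14 in sham pools. OVX pool 3 lay among the sham pools, and the difference was 0.32 ± 0.12 (adjusted p = 0.0372). Its call was lost without OVX pool 1 (0.27, adjusted p = 0.117) or OVX pool 2 (0.25, adjusted p = 0.136). Leaving out sham pool 1 (0.34, adjusted p = 0.0536) or sham pool 2 (0.25, adjusted p = 0.135) lost it too. So did the pool number as a replicate block (0.32, adjusted p = 0.0507) and a fit of OVX and sham alone (adjusted p = 0.0506). Array weights (0.27, adjusted p = 0.107), centring on housekeeping genes (0.29, adjusted p = 0.0709) and unmoderated variances (adjusted p = 0.077) also lost it.

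Sost encodes sclerostin, the osteocyte inhibitor of LRP5 and LRP6. Its values were -0.096, 0.090 and -0.043 in STBB OVX pools, 0.035, 0.0051 and -0.12 in LTBB OVX pools and 0.066, 0.066 and -0.050 in OVX pools, against -0.15, 0.12 and -0.039 in sham pools. All groups overlapped, and the difference between OVX and sham was 0.051 ± 0.083 with an interval of -0.13 to 0.23 (adjusted p = 0.627). Sost was not called, whereas other osteocyte genes rose, with Phex at 4.27, Dmp1 at 3.30 and Mepe at 3.23 (log2, OVX minus sham). Fgf23 fell, at -0.49. Dkk2 (-0.11 ± 0.081) and Sfrp5 (0.13 ± 0.17) did not pass the test either.

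**Figure D3:**
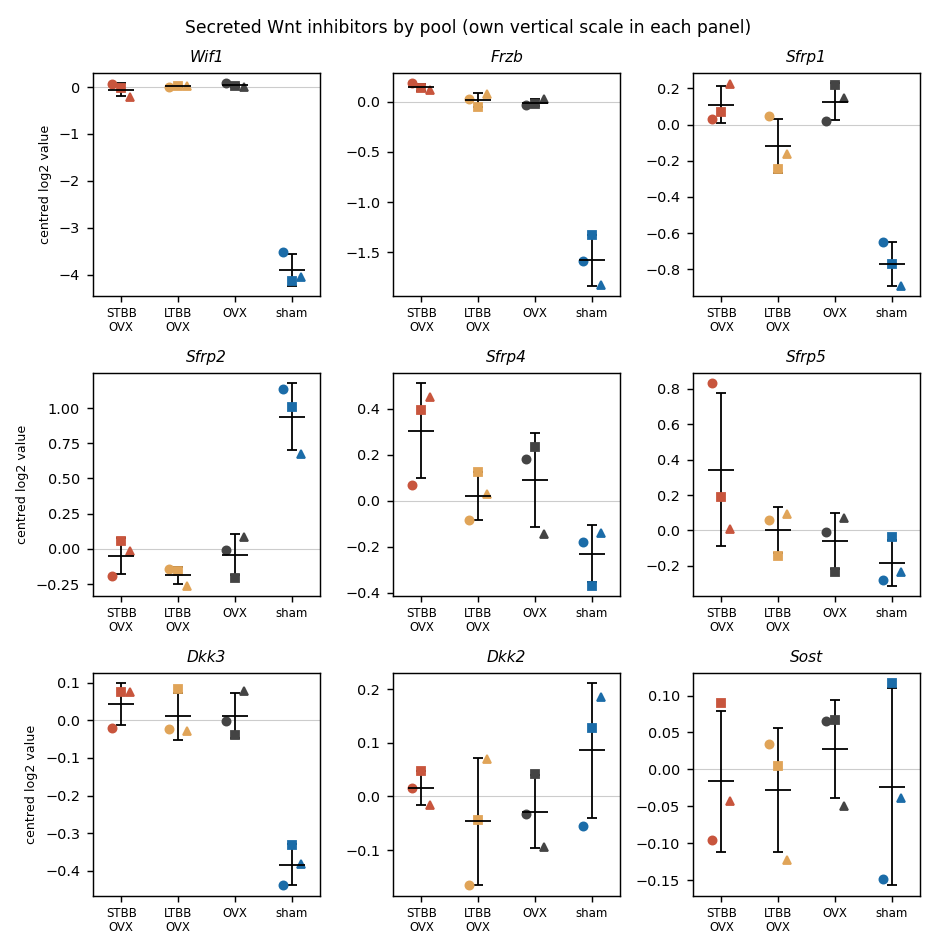
Centred log2 values of the 9 secreted inhibitors in each pool of the 4 groups, each panel with its own vertical scale; the marker shape gives the pool number, the bar the group mean and the whiskers 1 SD (n = 3 pools). Wif1, Frzb, Sfrp1 and Dkk3 are lower in sham than in every ovariectomized pool, Sfrp2 is higher in sham, and the groups overlap for Sost and Dkk2.

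Of the 7 genes of transcription and of the destruction complex, 5 rose in OVX and none fell, with a median log2 difference of 0.84. Beside them 30.3% of all genes were called higher and 28.6% lower. Tcf7l2, a transcription factor that acts with β-catenin, had 0.16, 0.016 and 0.071 in STBB OVX pools, 0.0096, 0.097 and -0.080 in LTBB OVX pools and 0.12, 0.089 and -0.066 in OVX pools, against -1.80, -1.75 and -1.86 in sham pools. The sham pools were close to each other and far below the rest, and OVX exceeded sham by 1.85 ± 0.074, or 3.61-fold (adjusted p = 3.94e-10). Tcf7, a related factor, had 0.017, -0.0031 and -0.12 in OVX pools, against -0.91, -1.24 and -1.96 in sham pools. Its sham pools spanned more than 1 log2 unit, all below the OVX pools, and the difference was 1.33 ± 0.21 (adjusted p = 0.000106).

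Ctnnb1, which encodes β-catenin, had 0.069, -0.021 and 0.097 in STBB OVX pools, 0.053, 0.056 and 0.029 in LTBB OVX pools and 0.036, -0.081 and -0.024 in OVX pools, against -1.07, -0.98 and -1.15 in sham pools. The pools of each group lay close together, and OVX exceeded sham by 1.04 ± 0.065, or 2.06-fold (adjusted p = 1.89e-08). Tcf7l1, a factor that mostly represses, rose by 0.84 ± 0.067 (adjusted p = 1.83e-07). Lef1, the factor named with TCF, rose by only 0.25 ± 0.063 (adjusted p = 0.00393).

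Axin2, a feedback inhibitor and a common readout of β-catenin signalling, had 0.15, -0.050 and -0.22 in STBB OVX pools, 0.0071, 0.076 and -0.16 in LTBB OVX pools and 0.049, -0.078 and -0.0071 in OVX pools, against 0.16, 0.10 and -0.016 in sham pools. The groups overlapped, and the difference between OVX and sham was -0.096 ± 0.096 with an interval of -0.30 to 0.11 (adjusted p = 0.422). Axin1, the scaffold of the destruction complex, differed by -0.13 ± 0.073 and was not called; without sham pool 3 it was -0.19 and called (adjusted p = 0.0338), as it was with arrays weighted by their estimated quality (-0.20, adjusted p = 0.0232).

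Single probe sets of a gene could be compared for 18 genes. Of 67 probe sets 31 rose in OVX, 4 fell and 32 did not pass, beside 49.8% of all probe sets called. All probe sets lay above 0 in 11 of the 18 genes and below 0 in 1, and the signs were mixed in 6. The 5 probe sets of Tcf7l2 were all called, with differences from 0.31 to 2.68, and the 3 of Sfrp1 lay between 0.41 and 1.36. Frzb gave 1.17 and 1.97, and Sfrp2 gave -1.31 and -0.65. In these 4 genes every probe set went the way of the mean.

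In other genes the probe sets differed. Ctnnb1 had 3 probe sets at 0.97, 1.29 and 1.98 and a 4th at -0.063 that was not called. Dkk3 had 1 called probe set at 1.11 and 3 uncalled ones between 0.096 and 0.25. Sfrp4 had 0.55, called, and 0.089, not called. Rspo3 had 0.40, called, and -0.10, not called, and neither probe set of Fzd4 was called alone. Both probe sets of Sost were near 0, at -0.0077 and 0.11. The transcript positions that these probe sets read were not analysed here.

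**Figure D4:**
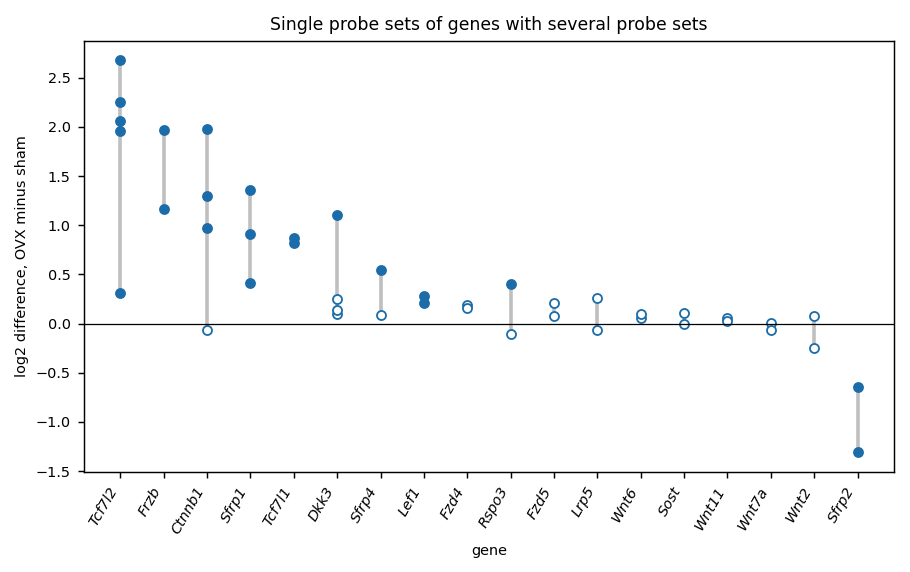
Log2 difference between OVX and sham (vertical axis) for each probe set of the 18 genes that have several; filled points passed the limma test over all probe sets, open points did not, and grey bars span a gene's probe sets. Tcf7l2 ranges from 0.31 to 2.68 with every probe set called, while Ctnnb1 has 1 probe set below 0.

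Genes that act with this set were examined from lists of the pathway. Of 18 genes of Wnt secretion, receptor turnover and alternative receptors 14 were measured. Of these 10 rose in OVX and none fell, beside 30.3% of all genes called higher and 28.6% lower. Their median log2 difference was 1.21. Tpbg, a membrane protein that dampens the β-catenin branch, rose by 2.99 and Cthrc1, a secreted collagen-repeat protein, by 2.76. Wls and Porcn, the carrier and the lipid-adding enzyme that Wnt secretion needs, rose by 1.19 and 1.23. The receptors Ptk7, Ryk and Lgr4 rose by 1.96, 1.44 and 1.51, whereas Lgr5 differed by -0.13 and was not called.

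Of 30 genes of signal transduction inside the cell 28 were measured, of which 12 rose and 5 fell (median 0.10). The list includes Tcf3 (-0.11, not called), a gene separate from Tcf7l1 whose place in the Wnt pathway was not examined. The share called, 17 of 28, is near the 58.9% of all genes. These 17 calls became 6 under quantile normalization and 8 with a fold of at least 1.5. The co-repressor Tle2 rose by 2.49 and the dishevelled antagonist Nkd2 by 1.28, while the co-repressor Ctbp1 fell, at -1.04, as did Btrc, which marks β-catenin for destruction, at -0.84. The kinase gene Gsk3b (0.0080) and Apc (0.072) of the destruction complex were not called. Of 17 genes of planar polarity and other signalling without β-catenin 16 were measured, of which 9 rose and 2 fell (median 0.24), and the 11 calls became 4 and 7 under the same settings. Vangl1 and Prickle2, core polarity genes, rose by 1.07 and 1.0, while Dact2 and Daam1 fell, at -0.93 and -0.76.

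Of 22 genes known as Wnt targets in one tissue or another 19 were measured, of which 11 rose and 2 fell (median 0.40). These 13 calls became 4 under quantile normalization and 8 with a fold of at least 1.5. The matricellular gene Ccn4 rose by 2.88, the cyclin gene Ccnd1 by 2.0, Bmp4 by 1.98 and Tnfrsf11b, which encodes osteoprotegerin, by 1.55. Fgf18 fell, at -0.41, as did Nkd1, at -0.24, and Myc (-0.064), Jun (-0.043) and Lgr5 were not called. Nkd1, Lgr5, Znrf3 and Apcdd1 stand in 2 of these lists each. The lists are described by their counts beside 58.9% of all genes called, 30.3% higher and 28.6% lower. The osteoblast, cartilage and stromal markers that rose in OVX moved with them, and the part of these markers in the result was not tested.

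The BB-fed groups were set against the same 3 sham arrays, so the comparisons with sham are not independent. In LTBB OVX 18 of the 41 genes rose and 3 fell compared with sham, beside 58.3% of all genes called (29.2% higher and 29.1% lower). In STBB OVX 20 rose and 3 fell, beside 58.3% (29.3% higher and 29% lower). Quantile normalization kept 11 of the 23 calls in STBB OVX and 11 of the 21 in LTBB OVX, and the share of all genes it kept was not counted. The 9 arrays of ovariectomized rats all lay above the 3 sham arrays in 18 Wnt genes, beside 27.1% of all genes, and all below them in 3, beside 26% of all genes. Wif1 differed from sham by 3.84 ± 0.13 in STBB OVX, 3.91 ± 0.13 in LTBB OVX and 3.94 ± 0.13 in OVX.

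A few genes stood at different distances from sham. Wnt16 differed from sham by -1.22 ± 0.26 in STBB OVX, -1.94 ± 0.26 in LTBB OVX and -2.07 ± 0.26 in OVX. Quantile normalization turned the value of STBB OVX to 0.33, which was not called (adjusted p = 0.666). Wnt5a differed by 0.60 ± 0.12 in STBB OVX, 0.71 ± 0.12 in LTBB OVX and 0.34 ± 0.12 in OVX. All were called in the fit as reported, and the call in OVX was lost in several alternatives. Sfrp4 differed by 0.53 ± 0.12 in STBB OVX (adjusted p = 0.00192), 0.25 ± 0.12 in LTBB OVX (adjusted p = 0.0934) and 0.32 ± 0.12 in OVX. Whether these distances differ between the ovariectomized groups is the question of the direct comparisons.

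Sfrp5, a further SFRP inhibitor, had 0.83, 0.19 and 0.0099 in STBB OVX pools, 0.057, -0.15 and 0.094 in LTBB OVX pools and -0.0099, -0.24 and 0.071 in OVX pools, against -0.28, -0.039 and -0.23 in sham pools. STBB OVX pool 1 stood far above all other arrays, and the difference between STBB OVX and sham was 0.53 ± 0.17 (adjusted p = 0.0176). Without that pool it was 0.28 and not called (adjusted p = 0.0593), and without sham pool 1 it was 0.48 and not called (adjusted p = 0.0555). Array weights (0.43, adjusted p = 0.0739) and unmoderated variances (0.53, adjusted p = 0.0546) lost the call too. Wnt2b rose by 0.27 ± 0.083 in STBB OVX (adjusted p = 0.0126). This call was lost without STBB OVX pool 3 (0.22, adjusted p = 0.0629) or sham pool 1 (0.20, adjusted p = 0.0569). Centring on housekeeping genes lost it as well (0.21, adjusted p = 0.0937). Wnt2b differed from sham by 0.20 ± 0.083 in LTBB OVX and 0.16 ± 0.083 in OVX, not called in either. Wnt10a, called in OVX, differed from sham by -0.086 ± 0.082 in STBB OVX and 0.0005 ± 0.082 in LTBB OVX. Fzd4 rose by 0.15 ± 0.058 in LTBB OVX (adjusted p = 0.04) and differed by 0.14 ± 0.058 in STBB OVX (adjusted p = 0.0503). The call in LTBB OVX was lost in 7 of the fits that left out 1 array (adjusted p from 0.0514 to 0.136). The pool number as a replicate block (adjusted p = 0.0692) and 1 probe set per gene (adjusted p = 0.0963) lost it too. So did centring on housekeeping genes (adjusted p = 0.246) and a fit of LTBB OVX and sham alone (adjusted p = 0.111). Wnt2 differed by -0.20 ± 0.11 in STBB OVX and -0.24 ± 0.11 in LTBB OVX, not called, but without sham pool 1, the lowest sham array, it was -0.34 in STBB OVX (adjusted p = 0.00792) and -0.38 in LTBB OVX (adjusted p = 0.00418).

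The BB diet was then compared among ovariectomized rats. No Wnt gene passed the test in LTBB OVX against OVX, STBB OVX against OVX or STBB OVX against LTBB OVX, and 0 of the 14217 genes did (limma, adjusted p under 0.05). In the F-test for any difference among the 3 ovariectomized groups none of the 41 passed either. At an unadjusted p under 0.05 there were 3 Wnt genes in LTBB OVX against OVX, beside 329 of all genes (2.31%), 4 in STBB OVX against OVX, beside 411 (2.89%), 4 in STBB OVX against LTBB OVX, beside 484 (3.4%), and 5 in the F-test, beside 407 (2.86%). The adjusted p of each of these genes was 1 in the pairwise comparisons.

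Wnt16 had an interval of 0.27 to 1.42 for STBB OVX minus OVX around 0.85 (unadjusted p = 0.00727) and of 0.15 to 1.30 for STBB OVX minus LTBB OVX around 0.72 (unadjusted p = 0.0172). STBB OVX pools 2 and 3 stood above all LTBB OVX and OVX pools, while STBB OVX pool 1 lay among them. Without OVX pool 1, the lowest array, the difference between STBB OVX and OVX was 0.56. Wnt10a differed by -0.32 between STBB OVX and OVX (interval -0.50 to -0.14, unadjusted p = 0.00214) and by -0.23 between LTBB OVX and OVX (interval -0.41 to -0.053, unadjusted p = 0.0152). The pools of each BB group lay below all OVX pools, and the OVX arrays are shared by both comparisons. Over all genes, pools did not overlap in 8.7% for LTBB OVX against OVX and in 9.38% for STBB OVX against OVX. Among the 41 Wnt genes, LTBB OVX pools lay above all OVX pools in 3 and below them in 3. STBB OVX pools lay above all OVX pools in 2 and below them in 2.

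Wnt5a differed by 0.37 between LTBB OVX and OVX (interval 0.10 to 0.64, unadjusted p = 0.0108), with the pools apart. Sfrp1 differed by -0.25 between LTBB OVX and OVX (interval -0.45 to -0.041, unadjusted p = 0.0223) and by 0.23 between STBB OVX and LTBB OVX (interval 0.024 to 0.43, unadjusted p = 0.0313), with overlapping pools in both. Kremen1 had 0.14, 0.34 and 0.062 in STBB OVX pools, -0.19, -0.12 and -0.051 in LTBB OVX pools and 0.045, -0.042 and -0.0080 in OVX pools. The STBB OVX pools of Kremen1 were the highest and the LTBB OVX pools the lowest, with 0.30 between these diets (interval 0.13 to 0.46, unadjusted p = 0.00179). Pools were apart in 4 of the 41 genes between these diets, beside 10.9% of all genes. For LTBB OVX against OVX they were apart in 8.7% of all genes, and for STBB OVX against OVX in 9.38%.

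For STBB OVX against OVX, Sfrp5 gave 0.40 (unadjusted p = 0.0359) and Kremen1 0.18 (unadjusted p = 0.0323), and for STBB OVX against LTBB OVX, Sfrp4 gave 0.28 (unadjusted p = 0.037). In LTBB OVX against OVX the 95% interval lay within 1 log2 unit of 0 for all 41 genes and within 0.5 for 38. In STBB OVX against OVX it lay within 1 for 40 genes, Wnt16 being the exception, and within 0.5 for 37. Wif1, with the largest difference from sham, had -0.097 between STBB OVX and OVX (interval -0.38 to 0.19) and -0.025 between LTBB OVX and OVX (interval -0.31 to 0.26). Sost had -0.044 (interval -0.22 to 0.14) and -0.055 (interval -0.24 to 0.12) in the same comparisons. The mean value of the muscle list was -0.137 to 0.593 in STBB OVX pools, -2.812 to 0.567 in LTBB OVX pools and -2.74 to -1.232 in OVX pools. That of the cartilage list was 0.158 to 0.566 in STBB OVX pools, -0.057 to 0.042 in LTBB OVX pools and -0.081 to 0.268 in OVX pools, so that the STBB OVX pools lay above all LTBB OVX pools. The part of both lists in these values was not tested.

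**Figure D5:**
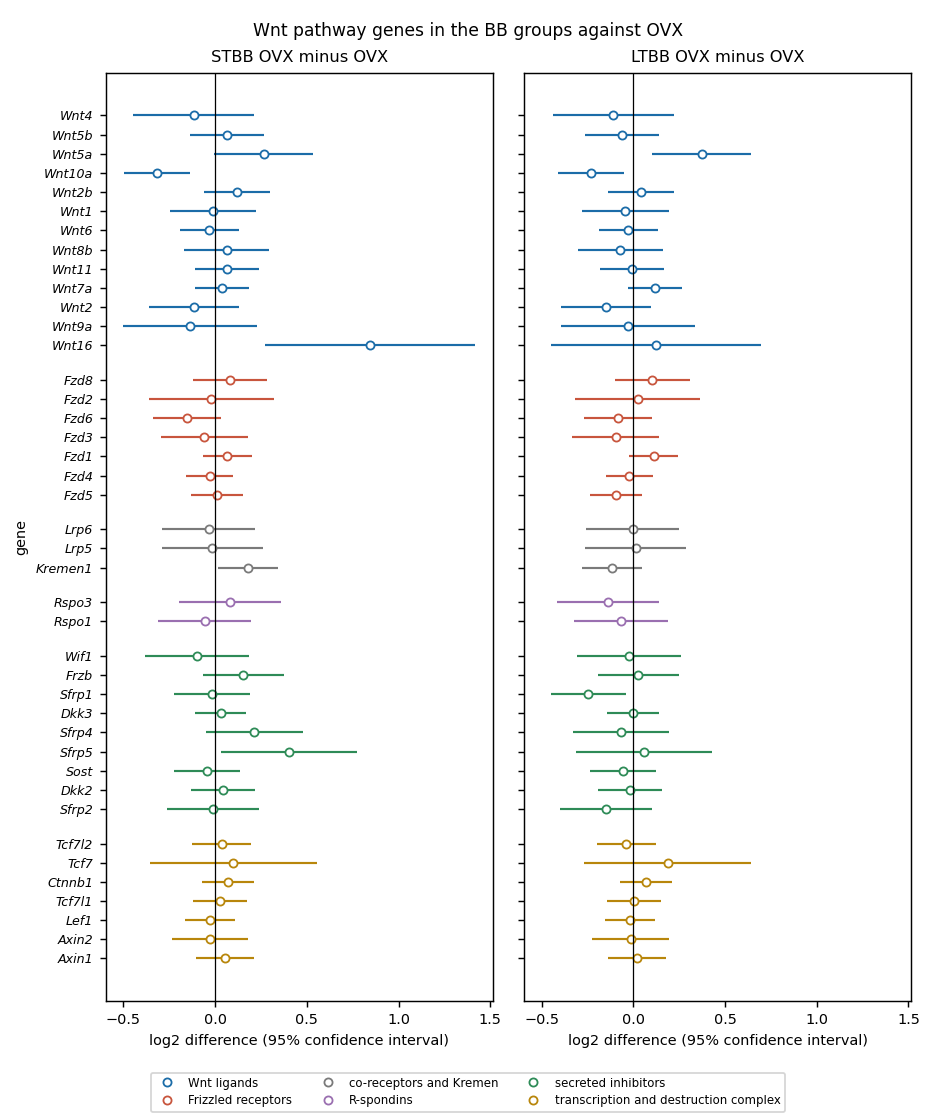
Log2 differences of STBB OVX minus OVX (left) and LTBB OVX minus OVX (right) with 95% confidence intervals for the 41 genes grouped by role (n = 3 pools per group); open points show that none passed the limma test. Wnt16 in STBB OVX lies farthest from 0 at 0.85, and the other points lie within 0.5 of 0.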

How the data were processed

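RNA of 12 pools was hybridized to Affymetrix rat genome arrays. The authors deposited log2 values, made by robust multiarray analysis (GCOS and RMA in the submitters' processing notes, with versions not given in the sources used here) and normalized in GeneSpring per array and per probe set. How dim a probe set was cannot be recovered, so depth of signal is unknown and no filter on dim probe sets was applied; the number of arrays limits the precision. Of 31099 probe sets 57 controls were left out. The platform annotation named a single gene on 20826 probe sets, more than 1 on 436 and no gene on 9780; 20758 were updated by gene ID through RefSeq GRCr8. No array column remained without a sample. The value of a gene is the mean of its probe sets.

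A model of 4 group means over 12 arrays was fitted with limma 3.58.1 in R 4.3.3 to all 14217 genes, and separately to all probe sets, with moderated variances, and p-values were adjusted after Benjamini and Hochberg (threshold 0.05). Errors are moderated standard errors and intervals are at 95%. No p-value here reflects more than the variation among pools, and the smallest p an exact two-sided permutation of 3 against 3 pools can give is 0.1. The fit was tested on simulated arrays with independent normal noise, a single spread per gene for all groups and no centring. Of 14217 genes 100 changed by 1 log2 unit and 100 by 2, far fewer than were called against sham. The test therefore does not give the error rate of the fit on these data. What a pool number marks is not stated. Deviations of same-numbered pools from their group means correlated above 0.1 in all 3 pairs of LTBB OVX and sham (0.11 to 0.232) and of STBB OVX and sham (0.104 to 0.166), and in none of the 12 pairs of the other 4 comparisons (-0.376 to 0.086), OVX and sham among them. The median was 0.03 for pairs of the same number and -0.004 for pairs of different numbers. Differently numbered pairs reached 0.161 in LTBB OVX and sham, -0.007 in STBB OVX and sham and 0.381 in LTBB OVX and OVX. The residual standard deviation of all genes was 0.122 in STBB OVX, 0.149 in LTBB OVX, 0.133 in OVX and 0.19 in sham.

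The genes, the lists and the rule for naming were chosen with earlier results of these data known. The rule named a fixed set of well-known inhibitors, co-receptors and effectors (Dkk1 and Wnt10b among them were not analysed here) and, in each role, up to 4 genes called with the largest differences between OVX and sham; other genes were named after their values were seen. Alternatives were leaving out each array, other centring, quantile normalization, array weights, unmoderated variances, fits of the compared groups alone, 1 probe set per gene, platform symbols, a fold minimum and the pool number as a block. Promoters came from RefSeq (GRCr8). Figures were drawn with matplotlib in Python.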

Additional observations from a re-analysis of the deposited data

How the results depend on the processing

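The number of Wnt genes called moved by more than 1.5 times only under quantile normalization of the arrays, which gave 11 genes in each ovariectomized group compared with sham, and 12 probe sets in OVX. All 11 genes in each comparison were among those called before. It also gave 6 genes of signal transduction, 4 targets and 4 genes of planar polarity; a fold of at least 1.5 left 8, 8 and 7. The setting makes the standard deviations of the arrays equal by construction, which narrows the sham arrays and widens the others. The share of all genes called under this setting was not counted, and its smaller counts do not rank single genes. Under it Wnt16 in STBB OVX against sham was 0.33 in place of -1.22, and Wnt5a in OVX against sham was -0.024; the cause was not tested. Leaving out 1 array gave 20 to 24 genes for OVX compared with sham, 20 to 23 for LTBB OVX, 23 to 25 for STBB OVX, 30 to 34 probe sets, 9 to 10 genes of secretion and turnover, 15 to 17 of signal transduction, 12 to 13 targets, 10 to 12 of planar polarity, and 0 to 0 in each comparison between diets.

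Of 67 called differences under 1407 alternatives in all, 79 lost the call, 32 of them under quantile normalization and the other 47 in 10 differences, among them Fzd4 in OVX and LTBB OVX, and Sfrp4, Wnt5a and Wnt10a in OVX. Leaving out a single array also brought a call to Axin1, Rspo3 and Wnt2b in OVX, to Dkk2 (-0.20, adjusted p = 0.0476, without sham pool 1), Wnt2 and Wnt2b in LTBB OVX, and to Fzd4, Fzd5, Kremen1, Rspo3, Wnt2 and Wnt11 in STBB OVX, each compared with sham. Outside quantile normalization no called difference changed sign. With the pool number as a replicate block there were 22 genes for OVX compared with sham, 20 for LTBB OVX, 23 for STBB OVX and 33 probe sets, and 0 between diets; the calls of Fzd4 in LTBB OVX and Sfrp4 in OVX (adjusted p = 0.0507) were lost and no other call on a Wnt gene changed. A filter on dim probe sets could not be run on centred values.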
